A study of Mus musculus with 2 samples.

Results

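The microRNA genes described here are those whose GENCODE mouse symbol is Mir followed by a number of 5000 or more. They were chosen by that number alone, and no measured value entered the choice. Of the 1973 microRNA genes listed in the deposited tables, 421 met the rule. They were measured by microRNA sequencing of midbrain from embryos of mouse strain B6NCrl at embryonic day 12.5, both sexes mixed. The 2 libraries, called biological replicates 1 and 2 in the labels, came from pools of 120 and 88 embryos. They form 1 group, with no treatment and no altered genotype, so the results are levels and a comparison of the 2 libraries.

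A microRNA is cut from the arms of a short RNA hairpin, and the mature strand guides an Argonaute protein to messenger RNAs that pair with its seed, bases 2 to 8. MicroRNA symbols are numbered in the order of their registration, so high numbers mark hairpins that were registered late, many of them after deep sequencing had become common. Some late entries are mirtrons, hairpins released by splicing of a short intron instead of by the nuclease Drosha. In a tailed mirtron, only 1 end of the hairpin coincides with a splice site, and the tail is trimmed.

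The sequences that follow, from RefSeq on GRCm38.p6, are those of the most abundant members with an entry, and capitals mark the seed. No seed recurs among them, but in so short a list this says little about how alike the members are. Mir5099, also among the most abundant members, has no mature entry in RefSeq and is left out.
mmu-miR-6944-5p: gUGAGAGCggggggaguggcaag
mmu-miR-6944-3p: uAACUCUUcccuugugcccucag
mmu-miR-6236: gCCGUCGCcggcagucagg
mmu-miR-6540-3p: uCUGAAGCuugcuuaccucca
mmu-miR-8112: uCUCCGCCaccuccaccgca
mmu-miR-8114: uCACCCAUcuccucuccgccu
mmu-miR-7689-5p: cCGAGGCAgccuggcuuag
mmu-miR-7689-3p: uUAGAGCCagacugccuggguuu
mmu-miR-5113: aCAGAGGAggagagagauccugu
mmu-miR-7688-5p: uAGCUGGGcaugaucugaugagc
mmu-miR-7688-3p: uCUGGCUUaugccuagcuuuc

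Replicate 1 held 4629302 counts on the own strand of a microRNA gene and replicate 2 held 2805487, and counts per 1000000 of these totals are given as CPM. A single count was worth 0.216 CPM in replicate 1 and 0.356 CPM in replicate 2, and a count of 0 allows up to 3 counts, or 0.648 and 1.07 CPM. The 2 libraries differed by far more than sampling noise over the 380 genes with at least 10 counts in both (chi-square per degree of freedom 162), so they were counted as separate samples. The labelled tissue was checked against 12 gene copies of brain-enriched microRNAs. All 11 that were found by symbol had counts in both libraries and they summed to 11983 and 12326 CPM. Most of this sum came from Mir137, Mir153 and the Mir219a copies. Mir9-2 had only 4.75 and 2.85 CPM, and the highest of the Mir124a copies, Mir124a-2, had 14.9 and 14.3 CPM. MicroRNAs of other cells were present too, at 23434 and 26243 CPM for endothelial Mir126a, 8417 and 11498 CPM for the mural pair, 818 and 1105 CPM for the epithelial pair, 399 and 242 CPM for the erythroid pair, 302 and 451 CPM for the leukocyte pair and 22.2 and 22.8 CPM for the muscle pair, in which Mir1a-1 had no counts. The part of these cells in the levels described here was not tested. In pooled tissue, fewer cells of a type and less RNA per cell cannot be told apart.

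Late-numbered hairpins made up a large share of the annotation and a very small share of the reads. All 421 together held 4728 counts in replicate 1, or 0.102% of the total (95% Wilson interval 0.0993 to 0.105%). In replicate 2 they held 2676 counts, or 0.0954% (0.0918 to 0.0991%). The mean was 0.0988% ± 0.0048 (SD, n = 2), or 988 ± 47.7 CPM, which is 2.35 CPM per listed gene. Intervals cover counting error only, since reads copied by PCR are not independent molecules. At least 1 count in both libraries was found for 183 members (43.5%), 50 more had counts in 1 library, and 188 had none. At least 10 counts in both libraries, the threshold for a quantified gene, were reached by 31 members (7.36%). The deeper replicate 1 taken alone gave 64 members with at least 10 counts and replicate 2 alone gave 33. A member with no counts may lie below the floor of 3 counts and is not shown to be absent.

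The hairpins with lower numbers give the scale. Among the 341 genes from Mir1 to Mir499, 79.5% had counts in both libraries, 68.3% were quantified, and their sum was 91.3% ± 0.63 of the counts (SD, n = 2). For the 124 genes from Mir500 to Mir999 the sum was 4.27% ± 0.05, with 40.3% quantified. The 82 genes from Mir1000 to Mir2999 summed to 0.751% ± 0.031, with 31.7% quantified. The 74 genes from Mir3000 to Mir4999 summed to 0.145% ± 0.006, with 33.8% quantified. The summed share was thus lower in each later range, and the members had the lowest of these 5 shares although they were the most numerous. The share with at least 1 count in both libraries did not fall in the same order, since it was 67.6% from Mir3000 to Mir4999 and 45.1% from Mir1000 to Mir2999. These are descriptions of the listed genes, without a test.

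**Figure D1:**
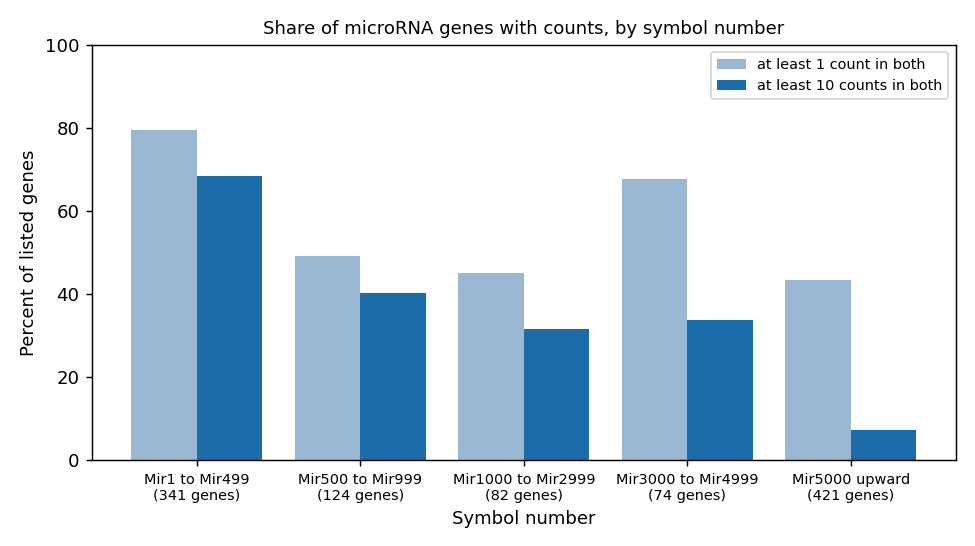
Percent of the listed microRNA genes with at least 1 count (light bars) and at least 10 counts (dark bars) in both libraries, by range of symbol number, with the number of genes under each pair. For Mir5000 upward the bars stand at 43.5% and 7.36%, so most detected members stayed under 10 counts.

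Reads that align to several places were assigned to no gene, which lowers the counts of microRNAs with identical copies. Of the 421 members, 21 (4.99%) shared 20 consecutive bases with a microRNA hairpin at another place, against 41.3% of the genes from Mir1 to Mir499. Only 2 of the quantified members did, Mir8112 and Mir6546. Copies outside annotated transcripts were not analysed here.

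Within the late numbers, the counts were concentrated in a few hairpins. The first member, Mir6944, held 15.2% ± 0.37 of the members' counts, the first 5 held 49.6% ± 1.23 and the first 10 held 64.1% ± 1.29 (SD, n = 2). The 31 quantified members held 78.7% ± 0.59. In replicate 1, 203 members had 0 counts, 77 had 1 or 2, 77 had 3 to 9, 55 had 10 to 99 and 9 had 100 or more. In replicate 2 the same classes held 223, 81, 84, 27 and 6 members. The members with at least 100 counts in both libraries were 6 in number and ranked from 189 to 262 among all 1973 genes by mean CPM.

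By number, the 48 members from Mir5000 to Mir5999 summed to 235 ± 11.0 CPM (SD, n = 2) with 8 quantified. The 191 from Mir6000 to Mir6999 gave 435 ± 49.2 CPM with 9 quantified. The 150 from Mir7000 to Mir7999 gave 212.2 ± 1.70 CPM with 12 quantified, and the 32 from Mir8000 upward gave 105 ± 7.79 CPM with 2 quantified. Per listed gene, the first of these ranges stood at 4.90 CPM and the Mir7000 range at 1.41 CPM.

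**Figure D2:**
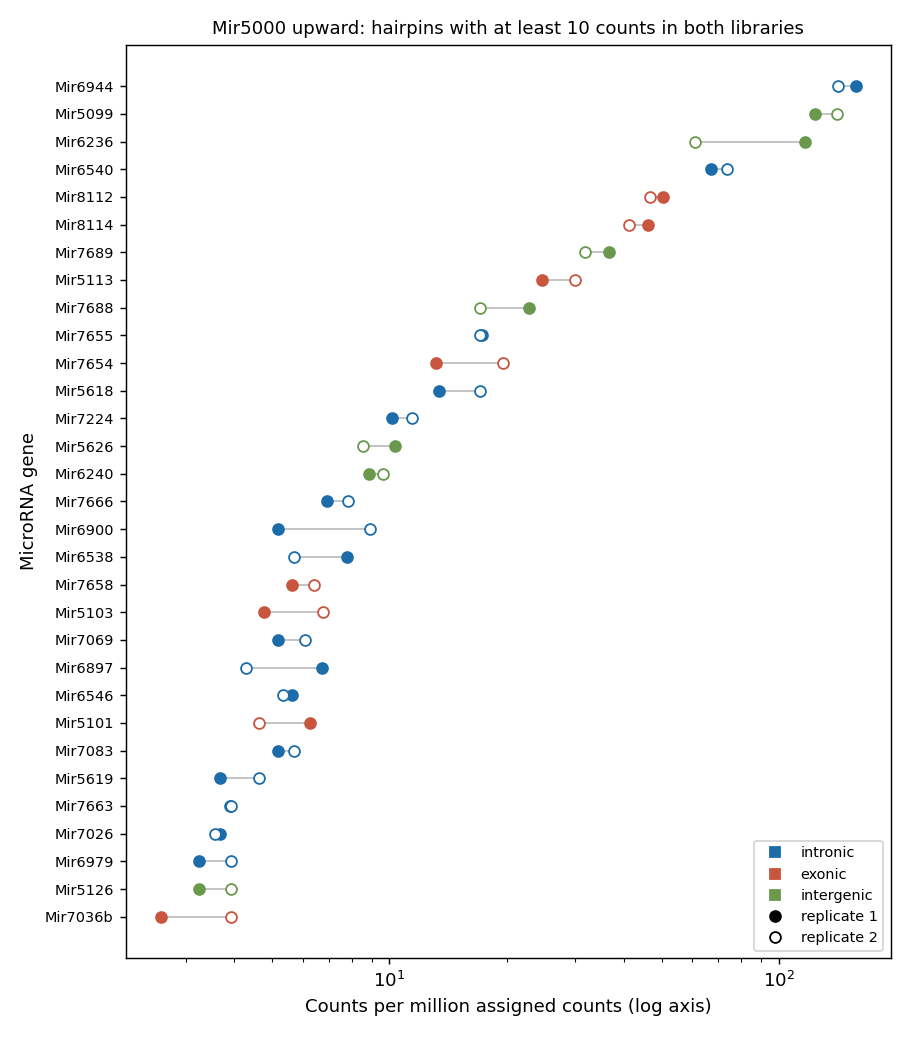
CPM (log axis) of the 31 members with at least 10 counts in both libraries, ordered by mean; filled points are replicate 1, open points replicate 2, and colour gives the host position. Mir6944 and Mir5099 lie above 120 CPM in both libraries, and Mir6236 shows the widest gap, 117 against 61.0 CPM.

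Host position was read from GENCODE release M21 on GRCm38 (mm10), on the strand of the hairpin. Of the 421 members, 226 were intronic, 97 overlapped an exon of at least 1 transcript and 98 were intergenic. The distinct hosts numbered 314, with overlapping host genes of a hairpin counted together as 1 host, and only 9 of them held more than 1 member. Another microRNA gene within 10 kb on the same strand was listed for 21 members, so most late-numbered hairpins stood alone. It was listed for 198 of the 341 genes from Mir1 to Mir499 and 59 of the 124 from Mir500 to Mir999. The ranges nearest in number were like the members, with 6 of 82 genes from Mir1000 to Mir2999 and 5 of 74 from Mir3000 to Mir4999. Intronic members held 46.8% ± 1.25 of the members' counts, intergenic members 30.7% ± 2.08 and exonic members 22.5% ± 0.84 (SD, n = 2). Counts in both libraries were found for 113 intronic members (50.0%) and 58 exonic members (59.8%), but for 12 intergenic members (12.2%). From Mir1 to Mir499, the intergenic share was 76.2% and the intronic share 74.7%. The other ranges also had a lower intergenic share, so the gap was not particular to the members. It was 40.5% against 57.9% intronic from Mir500 to Mir999 and 31.8% against 59.5% from Mir1000 to Mir2999. From Mir3000 to Mir4999 it was 40.0% against 75.8%. The quantified shares were 7.08% for intronic, 8.25% for exonic and 7.14% for intergenic members. The members' gap in detection therefore lay among hairpins with few counts, and no test was made of it.

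The most abundant intronic member, Mir6944 (ENSMUSG00000098341.1), lies on chromosome 13 from 55477681 to 55477776 on the minus strand. It fills an intron of Dbn1, which encodes drebrin, an actin-binding protein of neurons. It had 730 counts in replicate 1, or 158 CPM (95% Wilson interval 147 to 170), and 399 counts in replicate 2, or 142 CPM (129 to 157). The 2 intervals overlap, and with a mean of 150 ± 10.9 CPM (SD, n = 2) it ranked 189 of 1973. Its hairpin is shown whole, because both mature arms, in capitals, reach its outer ends and thus the splice sites.
Mir6944 hairpin: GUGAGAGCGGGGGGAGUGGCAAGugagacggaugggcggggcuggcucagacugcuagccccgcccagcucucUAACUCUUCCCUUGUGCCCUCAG
The next intronic member was Mir6540 (ENSMUSG00000098300.1), on chromosome 16 from 42303362 to 42303469 on the minus strand, in an intron of Gap43, the gene of a protein of neuronal growth cones. It had 310 and 207 counts, or 67.0 and 73.8 CPM. In contrast to Mir6944, neither end of its hairpin was at an intron end, and the mature arm, in capitals, lies inside it.
Mir6540 hairpin: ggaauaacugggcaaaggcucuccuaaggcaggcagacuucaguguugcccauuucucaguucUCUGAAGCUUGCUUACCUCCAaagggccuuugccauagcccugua
Mir7655, in Mllt10, had 80 and 48 counts, or 17.3 and 17.1 CPM, the closest pair of levels among the members above 10 CPM. Mir5618, in Tmem123, had 62 and 48 counts, and Mir7224, in the galactosyltransferase gene B3galt1, had 47 and 32. Mir7666 lies in an intron of Fgf20, which encodes a fibroblast growth factor, and had 32 and 22 counts. Mir6538, in the ubiquitin ligase gene Rnf144a, had 36 and 16, and Mir6546, in the Fc receptor gene Fcgr3, had 26 and 15. The lowest of this kind were Mir5619 in Nudt9, with 17 and 13 counts, and Mir7663 in Tbpl1, with 18 and 11.

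Nearly all members at an intron end lay at its 3′ end, next to the splice acceptor. With a tolerance of 5 bases, 186 of the 421 members (44.2%) had at least 1 end at the end of an annotated intron. Of these, 165 met only its 3′ end, 6 only its 5′ end and 15 filled the intron. In the lower ranges, the share at an intron end was 0.587% from Mir1 to Mir499, 2.42% from Mir500 to Mir999, 6.10% from Mir1000 to Mir2999 and 16.2% from Mir3000 to Mir4999. Among the members, they belong to Mir6000 to Mir6999 (89 hairpins) and Mir7000 to Mir7999 (94 hairpins), with 3 in the Mir5000 range and 0 from Mir8000 upward. Of the 186, 146 were intronic by every transcript and 40 also overlapped an exon of another transcript, 18 of them only in retained-intron transcripts.

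Since annotated introns nearly always begin with GT and end in AG, the position rule largely fixes the outer bases of these hairpins, which are given as a description. The hairpin ended in AG in 171 of the 186 (91.9%), against 19 of the 235 other members (8.09%). Of the 15 that filled an intron, 13 began with GT. RefSeq gave a 5p arm for 161 of the 186 and a 3p arm for 161, not in every case of the same hairpins. These 5p arms had a median G content of 45.5% and a median C content of 13.0%, and the 3p arms 14.3% G and 40.9% C. Among members away from intron ends, the medians were 33.3% G for 72 5p arms and 27.9% G for 68 3p arms. Of the 3p arms at intron ends, 122 (75.8%) ended in AG, the last 2 bases of an intron. Examples from the quantified members are shown, with the seed in capitals.
mmu-miR-6897-3p: cGGUCUGUguucuucccccag
mmu-miR-6900-3p: uGGUGAUGggcucucuuguag
mmu-miR-7026-3p: uGUGCUUUcuggucuuggcuuag
mmu-miR-7083-5p: uCGGGGCUggacaagcagaga
mmu-miR-7083-3p: uCUGCUCUccuggaccccag

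**Figure D3:**
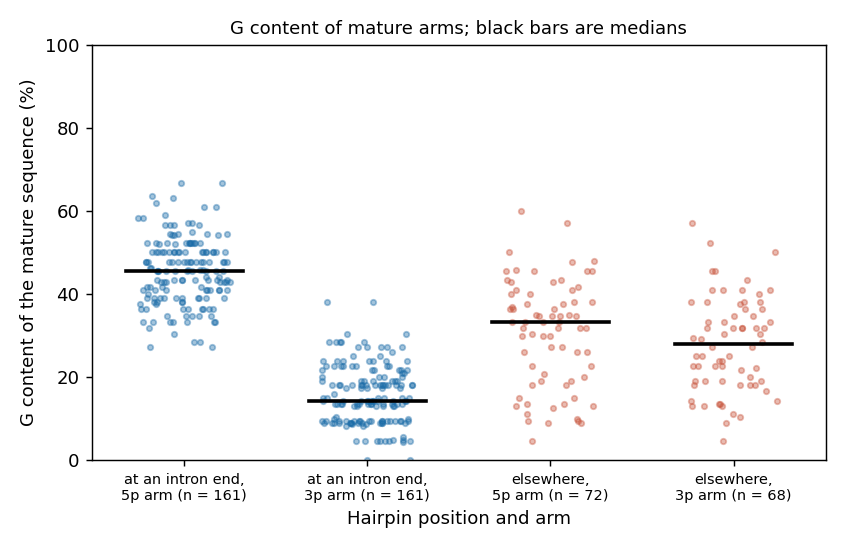
G content (percent) of each RefSeq mature arm of the members, by arm and by whether the hairpin lies at an intron end, with medians as black bars. At intron ends the 5p arms centre on 45.5% and the 3p arms on 14.3%, while the arms of other members centre on 33.3% and 27.9%.

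Hairpins at an intron end were often detected and seldom abundant. Of the 186, 104 (55.9%) had counts in both libraries and 7 (3.76%) were quantified, with a sum of 1525 counts in replicate 1 and 876 in replicate 2. Mir6944 alone gave 730 and 399 of these. The other quantified members at an intron end had 10 to 31 counts in each library. Mir6900, in the complex I gene Ndufa10, had 24 and 25 counts (5.18 and 8.91 CPM), and Mir7069, in the phenylalanyl-tRNA synthetase gene Farsa, had 24 and 17. Mir6897, in Uggt1, which encodes a folding sensor of the endoplasmic reticulum, had 31 and 12, and Mir7083, in Dock6, had 24 and 16. Mir7026 in Ep400 and Mir6979 in Diaph1 stood at the threshold, with 17 and 10 counts and 15 and 11 counts. Of the 146 that were intronic only, 81 had counts in both libraries. Of the 80 intronic members away from the ends, 32 (40.0%) had counts in both libraries and 9 (11.2%) were quantified. Frequent detection was not particular to intron ends. Of the 57 exonic members away from intron ends, 35 (61.4%) had counts in both libraries and 8 (14.0%) were quantified. The differences between these groups were not tested.

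**Figure D4:**
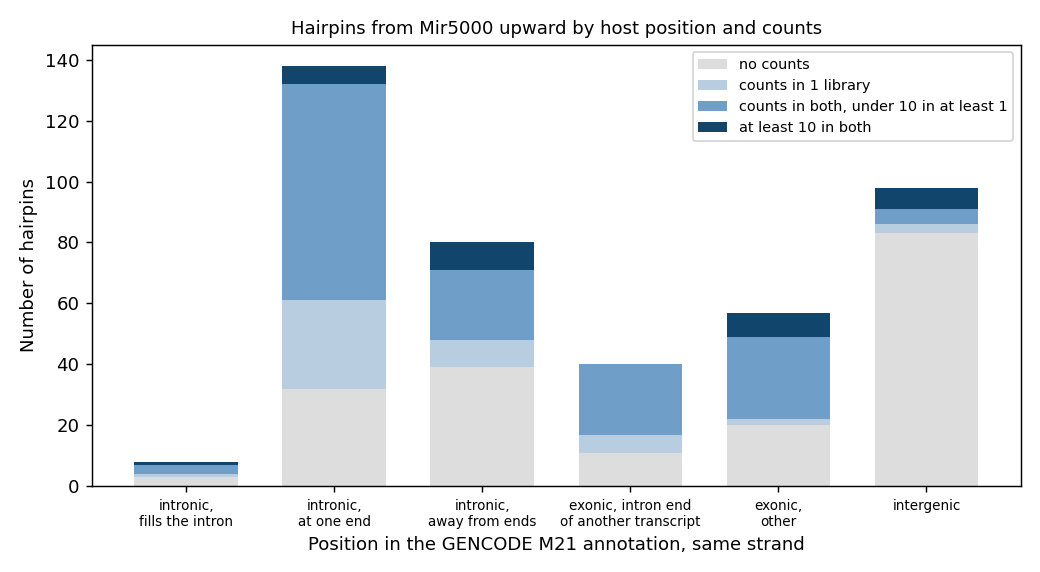
Number of members in each class of host position, stacked by how many counts they had, from none (grey) to at least 10 in both libraries (darkest). Of the 98 intergenic members 83 had no counts, whereas of the 138 intronic members at 1 end of an intron 32 had none.

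Gene-level counts do not tell a mature microRNA from another fragment of RNA from the same place, which holds for members of every host position. Exonic members also overlap sequence of a mature transcript of the host. An exon's coding sequence was overlapped by 40 members, with 217 and 140 counts in all, and an untranslated region but no coding sequence by 28 members, with 669 and 385 counts. The highest was Mir8112 (ENSMUSG00000098623.1), on chromosome 6 from 71271671 to 71271801, in the UTR of Krcc1, with 233 and 131 counts, or 50.3 and 46.7 CPM. Its hairpin has 78.6% GC and shares 20 bases with 6 other annotated microRNA genes, so reads that also aligned there are not in its counts. Mir8114 (ENSMUSG00000099227.1), on chromosome 1 from 153899926 to 153900036, lies in the UTR of the glutamine synthetase gene Glul and had 214 and 116 counts, or 46.2 and 41.3 CPM. Mir5113 (ENSMUSG00000092868.1), on chromosome 15 from 80940039 to 80940120, lies in the UTR of Tnrc6b, which encodes a scaffold protein of the microRNA silencing complex. It had 114 and 84 counts, or 24.6 and 29.9 CPM. Mir7654 overlaps coding sequence of Arglu1 and had 61 and 55 counts. Lower still were Mir7658 over coding sequence of Plekhn1 (26 and 18 counts), Mir5101 over coding sequence of Syne2, a nuclear envelope gene (29 and 13), Mir5103 in an exon of the long non-coding gene Gm37233 (22 and 19) and Mir7036b in the UTR of the adducin gene Add1 (12 and 11).

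A few intergenic members carried most of the intergenic counts. Mir5099 (ENSMUSG00000092998.1), on chromosome 12 from 36816205 to 36816278 on the plus strand, had 573 counts, or 124 CPM (95% Wilson interval 114 to 134), in replicate 1. In replicate 2 it had 397 counts, or 142 CPM (128 to 156), which puts its mean of 133 ± 12.5 CPM (SD, n = 2) next to that of Mir6944. The SDs of these 2 genes overlap, so their order is not settled. Mir6236 (ENSMUSG00000098973.1), on chromosome 9 from 110281287 to 110281409 on the plus strand, had 542 and 171 counts. Mir7689 (ENSMUSG00000098884.1), on chromosome 5 from 36301570 to 36301628 and opposite to Sorcs2, the gene of a neuronal sorting receptor, had 170 and 89 counts, or 36.7 and 31.7 CPM. Mir7688 (ENSMUSG00000098679.1), on chromosome 10 from 93433107 to 93433162, had 106 and 48 counts, or 22.9 and 17.1 CPM. The other quantified intergenic members were Mir5626 with 48 and 24 counts, Mir6240 with 41 and 27 and Mir5126, opposite to the Notch ligand gene Dner, with 15 and 11.

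Just outside the threshold, 33 members had at least 10 counts in replicate 1 only and 2 in replicate 2 only. By mean CPM these began with Mir6958 in Dennd6b (35 and 8 counts), Mir7226 in Ptprf (26 and 9), Mir7064 in Cars (32 and 5), Mir6935 in the actin gene Actg1 (21 and 9), Mir6951 in Azin1 (25 and 5) and Mir6991 in 2700081O15Rik (19 and 8). All 6 lay at an intron end. Just inside the threshold stood Mir7036b, at 3.26 ± 0.94 CPM (SD, n = 2).

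To compare the 2 libraries, each gene's count was set against the rest of its library in Fisher's exact test (two-sided), adjusted by Benjamini-Hochberg over the 380 genes with at least 10 counts in both. It sets a difference between 2 libraries of one tissue against counting noise and compares no conditions. Of the 31 quantified members, 1 differed at an adjusted p under 0.05, against 54.2% of all 380 genes. It was higher in replicate 1, as were 27.1% of all genes. The shares called among members and among all genes cannot be compared, since the test calls smaller differences at higher counts. The smallest counting SE of a log2 ratio was 0.09 among the members and 0.0029 over all 380 genes. The member called was Mir6236, with 117 CPM (108 to 127) in replicate 1 and 61.0 CPM (52.5 to 70.8) in replicate 2. Its log2 ratio of replicate 2 over replicate 1 was -0.94 ± 0.13 (counting SE), a 1.92-fold higher level in replicate 1 (Fisher's exact test, adjusted p = 2.91e-14). Without an adjustment 3 members passed, the others being Mir5099 with a log2 ratio of 0.19 ± 0.09 (adjusted p = 0.0761, exact test) and Mir7654 with 0.57 ± 0.27 (adjusted p = 0.0632, exact test). Both were called with edgeR's TMM factors in place of plain totals, with adjusted p of 0.0367 for Mir5099 and 0.0483 for Mir7654. Without the count filter the called members were Mir6236, Mir6958, Mir7064 and Mir7018, the last of which fills an intron of Hspg2 and had 5 and 13 counts.

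All 31 members lay within 2-fold between the libraries, as did 365 of the 380 genes. Their log2 ratios ran from -0.94 for Mir6236 to 0.78 for Mir6900, with a median of 0.14, against a median of 0.04 over all 380. The counting SE of a member's log2 ratio was between 0.09 and 0.60. A difference smaller than a member's error was not detectable at this depth. Larger ones could also stay uncalled, such as 0.57 ± 0.27 for Mir7654 with plain totals. Mir6236 also carried most of the spread of the sum. With it left out, the other members summed to 904 CPM in replicate 1 and 893 CPM in replicate 2, or 899 ± 8.02 CPM (SD, n = 2).

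**Figure D5:**
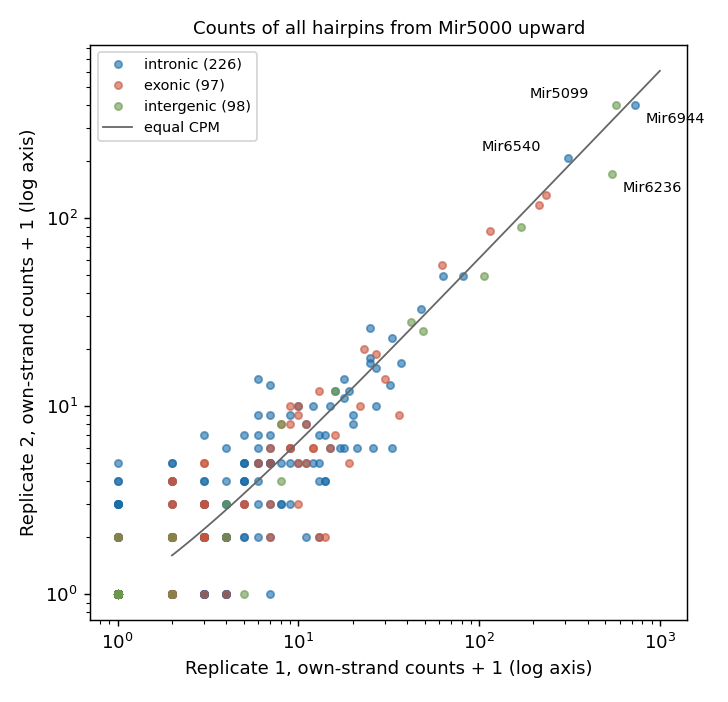
Own-strand counts plus 1 of all 421 members in replicate 1 (x, log axis) and replicate 2 (y, log axis), coloured by host position, with a line at equal CPM. Mir6236, at 542 and 171 counts, lies farthest below the line among the members with over 100 counts.

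The seeds of the quantified members are given as a description. The same counts were not made over all mouse microRNAs, so they show no trait particular to the members. RefSeq gave 44 mature sequences for 28 of the 31, with 44 distinct seeds. For 37 of them, no other RefSeq mature microRNA had the seed, and for 7 there was 1 other. Among these, mmu-miR-6240 shared its seed with mmu-miR-330-3p, and mmu-miR-7069-3p with mmu-miR-18a-3p, the minor arm of a microRNA of the Mir17hg cluster. Over all members, 381 had a mature sequence, 597 sequences in all with 539 seeds. The whole mature sequence was also found in an annotated transcript elsewhere for 13 members, of which Mir6546 was the only quantified one, matching the microRNA genes Gm27552 and Gm27844.

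The members' hairpins differed in length by range of number. Their median annotated length was 72 bases, against 83 bases from Mir1 to Mir499. It was 75 bases in the Mir5000 range, 83 in the Mir6000 range, 63 in the Mir7000 range and 124 from Mir8000 upward. The median GC content of the members was 54.8% against 46.4% from Mir1 to Mir499. It was 53.0% from Mir1000 to Mir2999 and 53.1% from Mir3000 to Mir4999, close to the members. The folding energy predicted by RNAfold had a median of -29.0 kcal/mol for the members and -35.5 kcal/mol from Mir1 to Mir499. Per base, the medians were -0.389 and -0.427 kcal/mol. The quantified members spanned 51 to 131 bases, 32.5 to 83.1% GC and -20.3 to -71.5 kcal/mol, which covers AU-rich hairpins such as Mir5101 and GC-rich ones such as Mir5126 and Mir8112.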

How the data were processed

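MicroRNA sequencing of 2 libraries was analysed. The authors deposited raw counts, whole reads per gene without normalization, from alignments to mm10 with annotation M4, per the deposited read-me files; for the aligner and counter, the sources used here name none. Values are from the own-strand one of 3 count columns (the others hold either and opposite strand), which held 97.6% and 97.5% of either-strand counts. Rows that name no gene, 56.9% and 58.2% of reads, stayed out of totals, multimapping reads (33.4% in each) among them.

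Identifiers were matched without version to GENCODE M21 (1894 of 1973). Exonic means overlap with an exon of any same-strand transcript that is no small RNA, intronic means inside such a gene only, and an intron end lies within 5 bases. Hairpins were folded with RNAfold 2.7.2. Fisher tests used scipy 1.17.1 and were tested on simulated data. Normalization factors came from edgeR 4.0.16 and DESeq2 1.42.0. Named members are the up to 25 quantified ones highest in CPM, up to 6 just below threshold, those called and the best of each class. Mir5619, Mir7663, Mir7026, Mir6979, Mir5126, Mir7036b and Mir7018 fall outside this rule and were named after their values were seen. The members and lists were chosen with earlier results of these data known.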

Additional observations from a re-analysis of the deposited data

Results flagged for a closer look

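Reads on the strand opposite to the members lie outside the own-strand counts and were examined because their number was above the 3 counts that a count of 0 allows. All members together had 23 such counts in replicate 1 and 4 in replicate 2. Mir7654, which overlaps coding sequence of Arglu1, had 14 of them in replicate 1 and 3 in replicate 2, beside 61 and 55 on its own strand. No member reached 10 opposite-strand counts in both libraries.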

How the results depend on the processing

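Of the 33 alternative values of the main results, 24 stayed within 1.5 times the count or 1 SD of the share. The 31 quantified members became 72 with a minimum of 5 counts and 17 with a minimum of 20, and ranged from 33 to 64 with either library alone. The summed share of 0.0988% was 0.0419% of all reads, 0.0838% without Mir6944, 0.0929% without members that share 20 bases and, in an alternative chosen after seeing the data, 0.0899% without Mir6236. With either library alone it ranged from 0.0954 to 0.102%. With n = 2 a single library always lies within 1 SD of the mean, so these values, counted among the 24, test nothing. The 1 member called between the libraries became 3 with TMM factors and 4 without the count filter, and stayed 1 with DESeq2 size factors and either-strand counts. Of 124 log2 ratios of single members under alternatives, 122 kept their call and 2 gained one. The sign changed for 2 ratios near 0, neither of them called: Mir7655 moved from -0.014 to 0.013 with TMM factors and Mir7663 from 0.012 to -0.024 with DESeq2 size factors. Ignoring retained-intron transcripts, also chosen after seeing the data, moved intronic members from 226 to 244 and exonic ones from 97 to 79. No paired analysis was possible because there is only 1 group. Depth limits most members, whose counts were under 10.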
